A study of Bos taurus with 42 samples.

Results

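The transcriptome of fetal bovine muscle was compared with that of cerebrum and liver from the same fetuses. The samples were 14 muscle libraries, taken by their tissue label from the 42 libraries of the series, and each of the 14 fetuses also gave 1 cerebrum and 1 liver library. All fetuses were collected at day 50 of gestation from Angus-cross heifers bred to a common sire. The CON dams (n = 7) were fed 100% of requirement from breeding onward and the RES dams (n = 7) received 60% of the CON intake, so that the muscle of 6 male and 1 female CON fetuses and of 5 male and 2 female RES fetuses was sequenced. The labels give the source as muscle and the tissue as the left hind limb, and do not say which muscle was taken or how it was freed from the tissue around it. In bulk RNA, fewer cells of a type and less RNA per cell cannot be told apart. The muscle libraries held 5384018 to 7592149 counts on 17226 to 17984 genes. Levels are given as CPM, the counts of a gene scaled to a common library total, after TMM scaling, a correction for libraries in which a few genes take a large share of the counts.

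Skeletal muscle forms when progenitor cells marked by PAX7 and MYF5 become myoblasts under MYOD1 and then, under MYOG, leave the cell cycle, fuse and build the contractile apparatus. The first fibres of the fetus contain embryonic and slow myosin and are joined to the skeleton by tendon. In the limb, they lie in mesenchyme patterned by HOX genes and around cartilage models of the bones, and nerve axons wrapped by Schwann cells grow in from outside.

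Several libraries stood apart from the others of their tissue. In muscle, the libraries of fetuses 73 (CON) and 1 (RES) held transcripts of sensory neurons. PRPH, which encodes the neuronal filament peripherin, was at 816 CPM in fetus 73 and 217 CPM in fetus 1, and no other muscle library exceeded 11.2 CPM. The cerebrum library of fetus 1 held transcripts of muscle and connective tissue, with 72.1 CPM of MYH3, 5.66 CPM of ACAN and 4492 CPM of SPARC. HOXA10, HOXC10 and TBX4, genes of the hind limb that all muscle libraries held, had no count in it. The other cerebrum libraries had at most 0.322 CPM of each. HOXC11 and HOXD13 also had no count in the library of fetus 1, and HOXA11 and HOXD11 had no count in any cerebrum library. Other members of the limb mesenchyme and patterning list were highest there among cerebrum, with TWIST1 at 51.6, MSX1 at 23.3, OSR2 at 11.8 and PRRX1 at 11.5 CPM. The only cerebrum count of HOXD10 was there too. The limb list summed to 219 CPM in it, with 67.7 CPM from PDGFRB and 42.0 CPM from TBX15, against at most 64.5 CPM in the other cerebrum libraries. The source of these transcripts was not tested. This library also held the highest cerebrum value of TPM1, IGF2, CSF1R, TNMD and TBX15, where the next cerebrum library was at 241, 33.3, 3.81, 1.93 and 2.54 CPM. The liver libraries of fetuses 1, 2, 6 and 33 held 67.7%, 44.9%, 35.6% and 30.5% mitochondrial counts. The cerebrum library of fetus 23 had a TMM factor of 0.746, against 1.05 to 1.43 in the other 13, and 14079 CPM of summed cerebral neuron genes, against at most 7091 CPM. Without it 6255 genes were higher and 5160 lower in the comparison that follows, and of the genes named here NEFL (adjusted p = 0.0575) and TUBB3 (adjusted p = 0.0502) lost their calls. Where leaving out the other 7 libraries changed the count of called members of a list, or the call of a gene named here, the value without them is given beside the result. The muscle libraries further fell into a pair of sets of 7 by the limb genes MSX1, MSX2 and HOXD13, as described with the limb genes.

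Of the 15972 genes tested, 6236 (39.0%) were higher and 5130 (32.1%) were lower in muscle than the mean of cerebrum and liver (edgeR's quasi-likelihood test with the fetus as a block, Benjamini-Hochberg adjusted p below 0.05). Among the 5105 tested genes with a symbol, these shares were 38.7% and 34.6%. This contrast is taken on the log2 scale against the mean of a pair of very different tissues, and a gene that is high in liver alone is therefore lower in it. Of the higher genes, 1139 were lower in muscle than in cerebrum and 245 were lower than in liver. A second call therefore required a gene to differ from each of the other tissues by 2-fold or more in the same direction. It was met by 1604 genes higher in muscle (10%; 11.9% of those with a symbol) and 565 lower in muscle (3.54%; 3.41% of those with a symbol). With the stricter filter of 1 CPM in at least 80% of libraries these were 767 and 316 genes, and 344 were lower without TMM scaling. For 851 genes (5.33%; 6.72% with a symbol) the lowest muscle library lay above every cerebrum and liver library, and for 149 genes (0.933%; 0.979% with a symbol) the highest muscle library lay below them all. The median log2 difference over all genes was 0.06. Without TMM scaling that median was 0.60, the calls split into 9410 higher and 2337 lower genes, and the share of higher genes among the calls was 80.1% in place of 54.9%.

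The 10 genes with the largest excess over both other tissues were 6 HOX genes, HOXA10, HOXA11, HOXC10, HOXD10, HOXD11 and HOXD13, and 4 genes of the sarcomere, ACTC1, MYL2, MYBPC1 and TNNC2. HOX genes of these groups set the position of cells along the hind part of the trunk and along the limb. HOXA10 was between 54.2 and 86.02 CPM (median 76.7) in muscle, while the highest cerebrum library had 0.170 CPM and the highest liver library 0.298 CPM. The cerebrum libraries together held 2 counts of it, which gave a ratio of 3516 with a 95% counting interval of 973 to 29035. HOXA11 had no count in cerebrum and was at least 955-fold higher in muscle, taking 3 counts over the group as the floor. ACTC1, the cardiac alpha-actin that fetal skeletal muscle also makes, was between 474 and 4089 CPM (median 1647) in muscle, and it was higher than in cerebrum by 9.56 ± 0.53 and than in liver by 9.91 ± 0.53 on the log2 scale (SE).

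**Figure D1:**
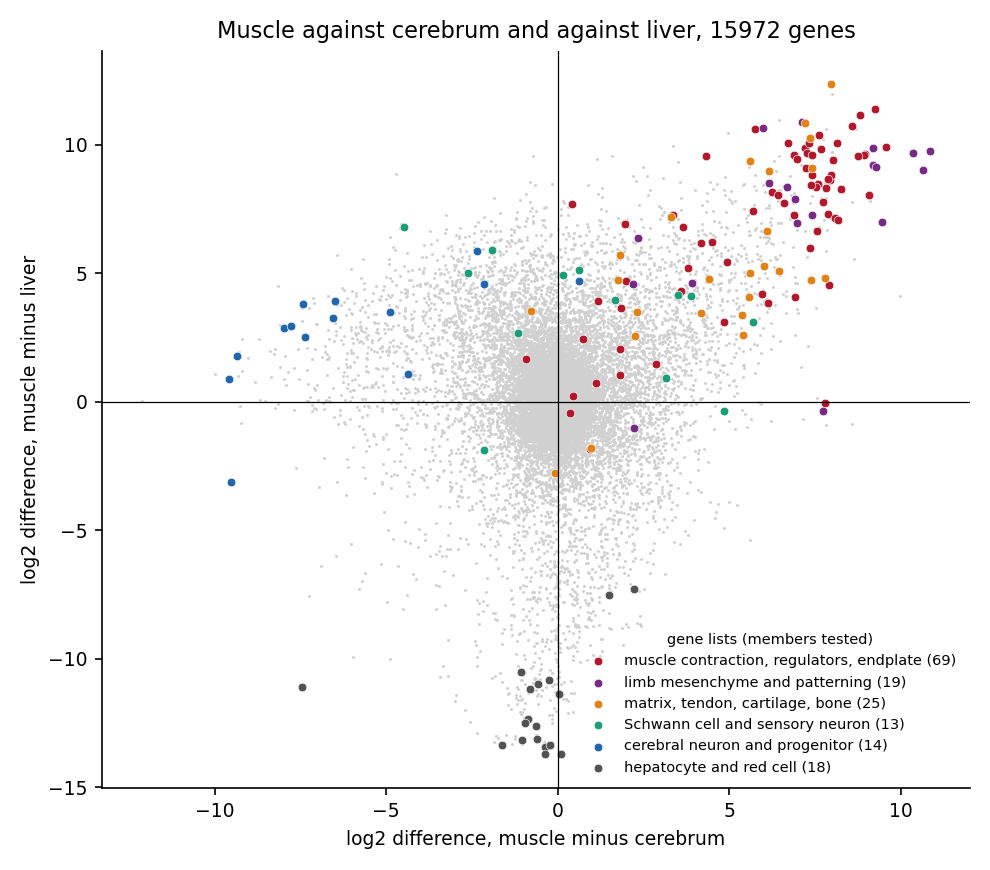
Log2 difference of each of the 15972 genes tested between muscle and cerebrum (x axis) and between muscle and liver (y axis), with members of the gene lists in colour and all other genes in grey. The 69 muscle genes and the 19 limb genes lie mostly in the upper right, high against both tissues, the cerebral neuron genes lie at the left and the hepatocyte and red cell genes at the bottom.

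Levels of 4 markers were read in each tissue. The study had already listed MYOG and MYOD1 as muscle-specific in these samples, so their values are no independent check of the label. MYOG, the regulator of myoblast differentiation, was between 30.7 and 297 CPM (median 122) in muscle. Its highest cerebrum value, in fetus 1, was 6.17 CPM, its highest liver value was 0.248 CPM, and the ratio of muscle to the 3 counts in liver was 3110.0 (95% counting interval 1064 to 15082). MYOD1, which commits cells to the muscle lineage, was between 9.10 and 71.1 CPM (median 31.3) in muscle and at most 0.505 CPM in cerebrum. It had no count in liver, so that it was at least 789-fold higher in muscle. MYH3, the embryonic myosin heavy chain, was between 734 and 5066 CPM (median 2291) in muscle, between 1.09 and 72.1 CPM in cerebrum and between 1.78 and 21.4 CPM in liver. The log2 difference of MYH3 was 8.56 ± 0.29 (SE, adjusted p = 4.29e-22). ACAN, the aggrecan core protein of cartilage, was between 12.7 and 57.1 CPM (median 27.1) in muscle and at most 5.66 CPM in cerebrum and 0.178 CPM in liver. The single count of ACAN in liver gave a ratio of 2204 (95% counting interval 395 to 87067), and the log2 difference to cerebrum was 7.36 ± 0.51 (SE, adjusted p = 3.13e-14). For all 4 genes every muscle library lay above every other library. Muscle and cartilage transcripts were thus found together in all 14 fetuses.

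**Figure D2:**
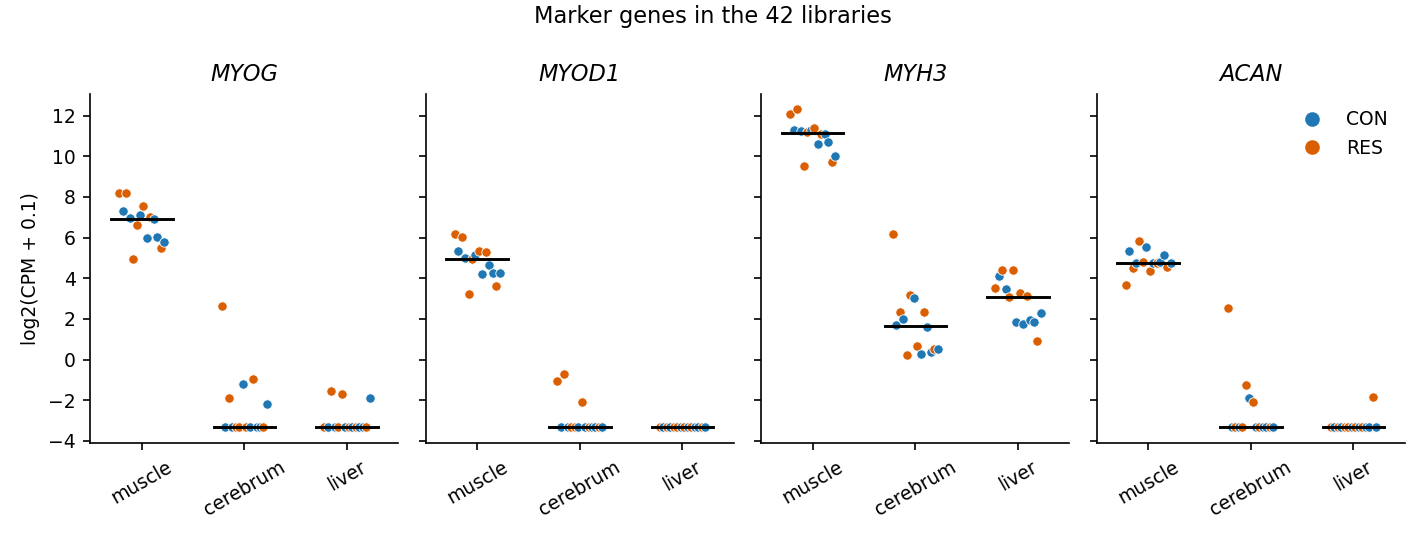
Level of MYOG, MYOD1, MYH3 and ACAN in each of the 42 libraries as log2(CPM + 0.1), 1 point per library, coloured by diet of the dam (CON or RES), with the median of each tissue as a bar. The muscle points lie above all cerebrum and liver points, and the highest cerebrum point of MYOG, MYH3 and ACAN is fetus 1.

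The functions of muscle were followed in 25 gene lists of 376 genes, of which 199 could be matched by symbol and 197 were tested. Over all lists, 148 members were higher, 38 were lower and 11 passed in neither direction, and 120 were higher than in each tissue. When 1 CPM was required in at least 80% of all 42 libraries, which removes genes low in either other tissue, 53 members were higher and 18 lower. These lists were written to hold tissue genes, so that their shares cannot be read as typical of the genome beside the 39.0% and 32.1% given above, or the 10% (11.9% with a symbol) higher than in each tissue. Most symbols also came from gene tables that the study selected on these samples, partly by tissue, and the counts are therefore not independent evidence of direction.

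All 10 myogenic regulators tested were higher in muscle, with a median log2 difference of 5.27 against 0.06 over all genes, and 7 of them were higher than in each tissue. SIX4, a homeobox factor that switches on MYOD1 and MYOG, was between 37.8 and 68.01 CPM (median 57.03) in muscle, and the highest value in any other library was 12.7 CPM. MYF5, the earliest of the myogenic factors, was between 5.44 and 44.1 CPM (median 22.5) and at most 0.881 CPM elsewhere. MYMK, which encodes the membrane protein myomaker needed for fusion of myoblasts, was between 4.44 and 49.7 CPM (median 26.4) and at most 2.90 CPM elsewhere. LBX1, which marks muscle precursors that migrate into the limb, was between 1.33 and 11.9 CPM (median 4.104), and the highest cerebrum library had 2.26 CPM. The remaining 3 were shared with another tissue. PAX7, the factor of muscle progenitors that is also used in the developing brain, was between 0.444 and 5.65 CPM (median 3.95) in muscle and 0 to 8.27 CPM in cerebrum (log2 difference 0.42 ± 0.52, adjusted p = 0.492). It had no count in liver, and was at least 84.2-fold higher in muscle. MYMX, the fusion partner of MYMK, was between 1.11 and 21.8 CPM (median 5.77) in muscle and 1.24 to 10.3 CPM in liver (log2 difference -0.03 ± 0.26, adjusted p = 0.918). MEF2D, a cofactor of the myogenic factors that many cells use, was higher by 0.93 ± 0.11 on the log2 scale.

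The contractile apparatus was high in every muscle library. All 10 thick filament genes tested, 12 of 13 thin filament genes and all 13 genes of the Z-disc, titin and sarcomere assembly were higher, with median log2 differences of 8.29, 7.62 and 8.16, and each of the genes called was higher than in each tissue. Every muscle library lay above every other library for 9, 11 and 13 of them. MYLPF, the light chain of fast fibres, was between 169.7 and 1651 CPM (median 522) in muscle. MYL2, the slow and cardiac regulatory light chain, was between 114 and 1137 CPM (median 345). MYH7, the slow myosin heavy chain, was between 86.4 and 648 CPM (median 239) against at most 29.7 CPM in the other tissues. Transcripts of fast and slow forms of sarcomere proteins were thus present in each muscle library, and bulk RNA does not assign them to types of fibre. TPM1, a tropomyosin of muscle and non-muscle cells, was between 557 and 956 CPM (median 658) in muscle and 141 to 631 CPM in cerebrum, where only fetus 1 overlapped with muscle, with a log2 difference of 1.42 ± 0.13. TPM2, a tropomyosin of muscle, was between 170.4 and 1256 CPM (median 411) and differed by 4.99 ± 0.21. ACTA1, the adult skeletal actin, was between 38.5 and 571 CPM (median 143) and at most 7.17 CPM elsewhere. Both troponin families were high in all fetuses, with the fast calcium subunit TNNC2 between 65.5 and 799.8 CPM (median 206) and the slow and cardiac subunit TNNC1 between 103 and 859 CPM (median 259). The single thin filament gene that was not called was TMOD4, a cap of the filament in fast fibres, at 2.11 to 4.88 CPM in muscle and a log2 difference of 0.34 ± 0.19 (adjusted p = 0.101). Without the 7 libraries that stood apart TMOD4 was higher (0.45, adjusted p = 0.0177), and 11 thin filament genes were higher than in each tissue.

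DES, the intermediate filament desmin that ties Z-discs together, was between 160.4 and 956 CPM (median 389) in muscle and at most 27.8 CPM elsewhere. FLNC, the muscle filamin, was between 235 and 662 CPM (median 427) and differed by 3.98 ± 0.17. KLHL41, a protein of sarcomere assembly, was between 77.8 and 475 CPM (median 219) and at most 9.94 CPM elsewhere. UNC45B and SMYD1, which fold and assemble myosin, were between 14.98 and 148 CPM (median 58.5) and between 3.11 and 28.98 CPM (median 14.7). These 5 genes separated muscle from the other tissues without overlap. All 10 genes of excitation-contraction coupling were higher, 9 of them than in each tissue, with a smaller median of 4.22. RYR1, the calcium release channel, was between 67.00 and 289.6 CPM (median 167) in muscle, 16.2 to 84.9 CPM in cerebrum and 15.7 to 70.1 CPM in liver (log2 difference 1.95 ± 0.17, adjusted p = 4.29e-12). CASQ2 and SLN, which hold calcium in the sarcoplasmic reticulum and regulate its pump, were between 34.5 and 284 CPM (median 116) and between 19.7 and 246 CPM (median 82.2) and differed by 8.71 ± 0.29 and 8.51 ± 0.34. CACNB1, a calcium channel subunit also used in neurons, was the member not higher than each tissue by 2-fold, with a log2 difference to cerebrum of 0.73 ± 0.14.

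Of the 7 endplate genes, which build the synapse on the muscle side, 6 were higher than in each tissue. CHRNG, the gamma subunit of the fetal acetylcholine receptor, was between 59.2 and 785 CPM (median 294) and at most 9.56 CPM in any other library (log2 difference 9.15 ± 0.30, adjusted p = 1.9e-22). CHRNE, the epsilon subunit that replaces it in the adult receptor, was between 1.07 and 3.55 CPM (median 2.15) in muscle, 0.510 to 3.65 CPM in cerebrum and 5.12 to 16.8 CPM in liver. Its log2 difference was -0.44 ± 0.19 (adjusted p = 0.0372). That call was lost when fetus 1, 6, 33, 52, 54 or 73 was left out (adjusted p up to 0.119, for fetus 1) and without the 7 libraries (adjusted p = 0.241), and the direction turned without TMM scaling (0.08, adjusted p = 0.717). CHRNA1, the alpha subunit, was between 39.7 and 349.7 CPM (median 162) and CHRNB1, the beta subunit, between 61.8 and 123 CPM (median 91.1). RAPSN and MUSK, which cluster the receptor, were between 8.16 and 82.9 CPM (median 30.2) and between 2.88 and 27.2 CPM (median 15.3), and were higher than in cerebrum by 4.17 ± 0.26 and 7.40 ± 0.34. Of 6 genes of muscle energy metabolism, 5 were higher and 4 were higher than in each tissue. ENO3, the muscle enolase, was between 23.9 and 141 CPM (median 56.5) in muscle and differed by 2.18 ± 0.14. CKM, the muscle creatine kinase, was between 1.93 and 62.03 CPM (median 13.5) and at most 0.503 CPM elsewhere. FABP3, a fatty acid carrier of heart and muscle, was between 32.05 and 59.8 CPM (median 37.7) in muscle but 61.2 to 135 CPM in cerebrum, so that muscle lay below every cerebrum library. FABP3 was higher in the contrast through liver (0.37 ± 0.11, adjusted p = 0.00368), and this call was lost without the 7 libraries (0.19, adjusted p = 0.086), which left 4 higher members. CKMT2, the mitochondrial creatine kinase, was at 0.418 to 1.67 CPM and a log2 difference of -0.04 ± 0.30 (adjusted p = 0.914).

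**Figure D3:**
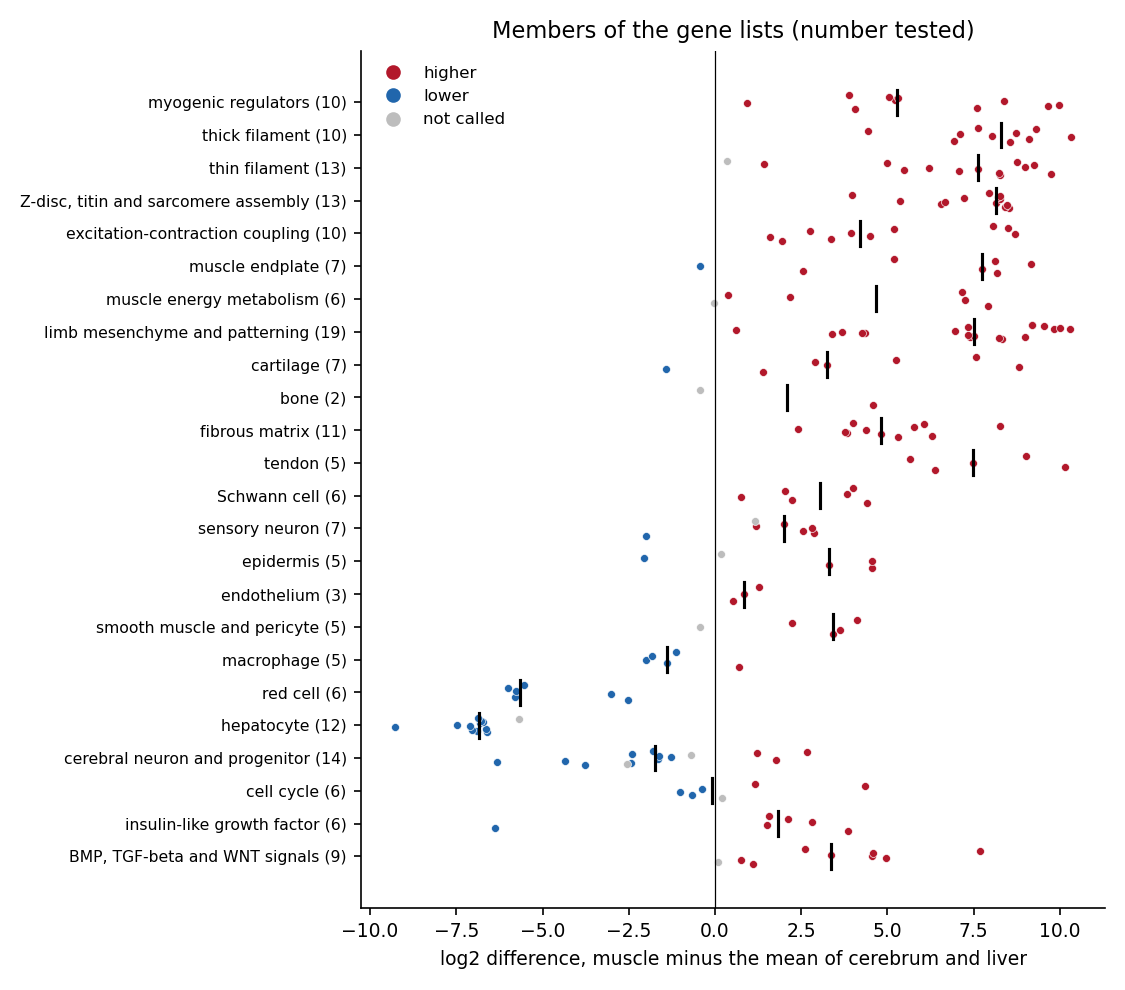
Log2 difference between muscle and the mean of cerebrum and liver for each tested member of the gene lists (number tested in brackets), 1 point per gene, red for higher, blue for lower and grey for neither at an adjusted p of 0.05, with the median of each list as a bar. The sarcomere, endplate, limb and tendon lists lie farthest to the right, and the hepatocyte and red cell lists farthest to the left.

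All 19 limb mesenchyme and patterning genes tested were higher in muscle, 17 of them than in each tissue, with a median log2 difference of 7.51. Without muscle libraries 1 and 73 these counts were 18 and 16, because HOXD13 was then removed by the filter on low values. TBX4 and PITX1, factors of hind limb identity, were between 23.7 and 80.3 CPM (median 57.2) and between 54.7 and 180.1 CPM (median 96.05) in muscle, and at most 1.15 and 2.79 CPM in any other library. TBX5, the factor of the forelimb, was between 4.75 and 28.99 CPM (median 9.79) and at most 0.340 CPM elsewhere. TBX15, a factor of limb and trunk mesenchyme, was between 68.4 and 187 CPM (median 134), and its highest cerebrum value of 42.03 CPM lay below every muscle library. TWIST1, a mesenchymal factor, was between 26.05 and 167 CPM (median 98.99), with 1 cerebrum library at 51.6 CPM. PRRX1 and FGF10, a factor and a growth signal of limb mesenchyme, were between 18.1 and 54.1 CPM (median 44.8) and between 10.98 and 41.5 CPM (median 24.8), and were higher than in cerebrum by 5.99 ± 0.41 and 3.92 ± 0.31. The exceptions to higher in each tissue were PDGFRB, a receptor of mesenchymal cells, which was between 95.5 and 194 CPM (median 144) in muscle but 157 to 389 CPM in liver, and HAND2, a factor of the posterior limb bud, which was between 3.28 and 29.3 CPM (median 21.4) in muscle and 12.4 to 40.7 CPM in liver (log2 difference -0.37 ± 0.24, adjusted p = 0.147).

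The limb genes varied to different degrees among the fetuses. HOXA10 and HOXC11 spanned 54.2 to 86.02 and 3.33 to 7.41 CPM over the 14 muscle libraries. MSX1, a factor of the distal limb mesenchyme, was at most 2.00 CPM in 7 libraries and at least 47.1 CPM in the other 7, with no library between. HOXD13, the HOX gene of the hand and foot plate, was at most 2.71 CPM in the same 7 libraries and at least 14.6 CPM in the others. MSX2, a relative of MSX1, was at most 0.651 CPM and at least 4.12 CPM on the same division. A part of the epidermal genes was divided alike. KRT17, a keratin of skin, was at most 1.23 CPM in the 7 low libraries and at least 2.92 CPM in the other 7, and the summed epidermis list was 12.9 to 27.3 CPM in the former and 39.3 to 255 CPM in the latter. KRT5 and KRT15 were also higher in each of the latter 7, but had their widest gap below fetus 70, and KRT8 and KRT19 were not divided in this way. The 7 libraries with the high values of MSX1 were those of fetuses 25, 33, 54, 55, 68, 69 and 70, 3 of them CON and 4 RES. They included all 3 female fetuses (55, 68 and 70), and the 7 low libraries were all from males. The 7 low libraries still lay above cerebrum and liver for HOXD13, with 0.340 CPM as the lowest muscle value and 0.149 CPM as the highest value elsewhere. For MSX1 they did not, since the lowest muscle value was 0.416 CPM and cerebrum reached 23.3 CPM. This division was seen in the values and was not tested, and the part of skin in it was not tested.

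**Figure D4:**
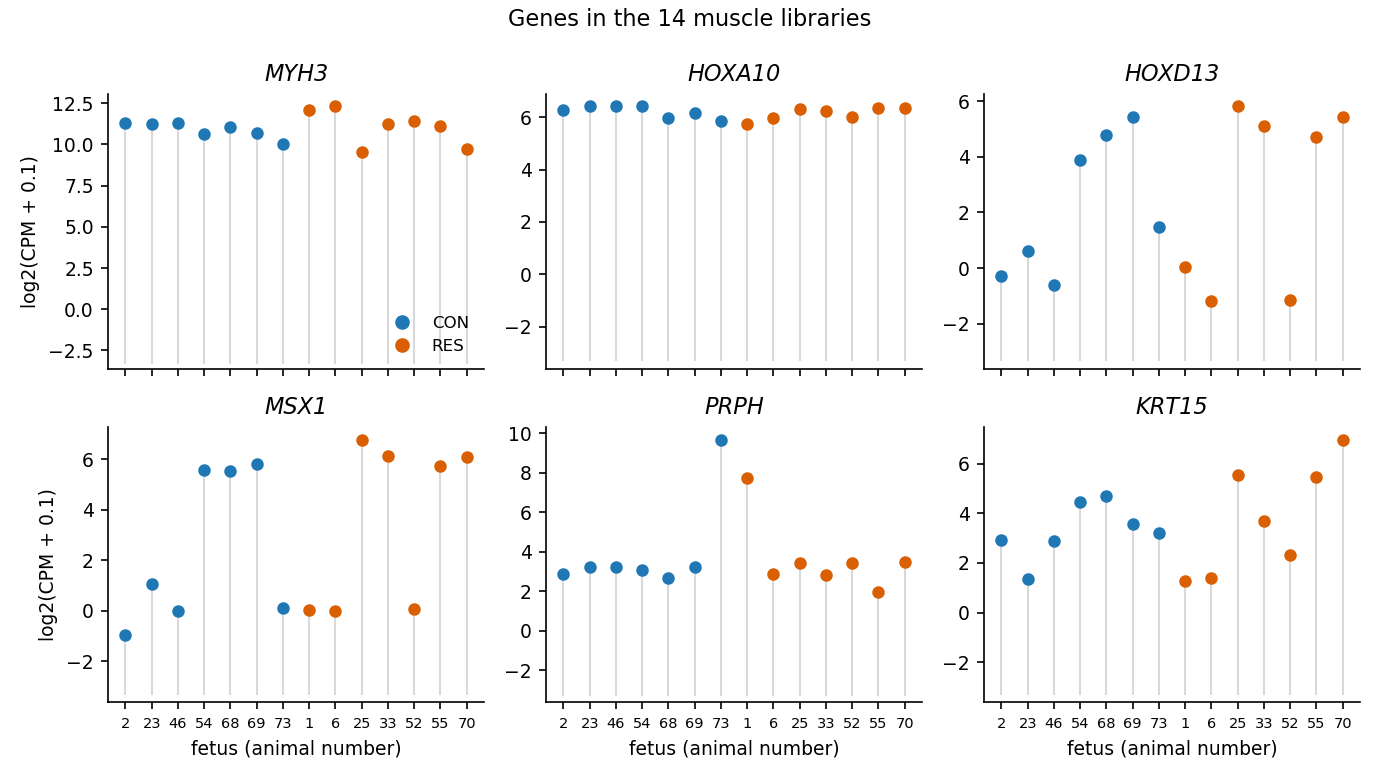
Level of MYH3, HOXA10, HOXD13, MSX1, PRPH and KRT15 in the muscle library of each of the 14 fetuses as log2(CPM + 0.1), coloured by diet of the dam. HOXD13 and MSX1 show 7 high and 7 low libraries, PRPH is high in fetuses 73 and 1, and HOXA10 varies little.

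Of 7 cartilage genes tested, 6 were higher in muscle and 5 were higher than in each tissue, with a median log2 difference of 3.25. COL11A2 and COL9A1, collagens of the cartilage fibrils, were between 74.8 and 188 CPM (median 114) and between 20.1 and 138 CPM (median 46.9) in muscle and differed by 2.91 ± 0.17 and 3.25 ± 0.32. HAPLN1, the link protein that holds aggrecan, was between 2.88 and 18.4 CPM (median 9.23), and GDF5, a signal of the forming joint, was between 3.23 and 20.9 CPM (median 8.58). GDF5 reached 0.510 CPM in cerebrum and had no count in liver, an excess over liver of at least 223-fold. SOX9, the main factor of chondrocytes that is also used in neural progenitors, was between 1.58 and 11.2 CPM (median 5.70) in muscle and 2.39 to 15.7 CPM in cerebrum, and was lower than in cerebrum (log2 difference -0.78 ± 0.27, adjusted p = 0.0113). SOX6, a chondrocyte factor also used in red cell precursors, was between 2.54 and 5.72 CPM (median 4.26) in muscle and 14.97 to 43.1 CPM in liver, and was the member lower in the contrast (-1.43 ± 0.17, adjusted p = 3.9e-09). Among the bone genes, RUNX2, the factor of osteoblasts and late chondrocytes, was between 9.68 and 70.8 CPM (median 36.99) and differed by 4.59 ± 0.34. BGLAP, the osteocalcin of mature osteoblasts, was at 1.11 to 2.61 CPM in muscle and 1.12 to 50.2 CPM in liver (-0.42 ± 0.33, adjusted p = 0.249).

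All 11 genes of the fibrous matrix and all 5 tendon genes were higher than in each tissue, with median log2 differences of 4.83 and 7.49. SPARC, a collagen-binding matrix protein, was between 2683 and 4296 CPM (median 3536) in muscle, and COL5A2, a fibrillar collagen, was between 609 and 1516 CPM (median 1120.1). VCAN and ELN, which encode versican and elastin, were between 409.6 and 784 CPM (median 658) and between 354 and 591 CPM (median 515) and differed by 3.77 ± 0.23 and 4.83 ± 0.23. Muscle lay above all other libraries for 9 of the 11 matrix genes and 4 of the 5 tendon genes, and for all of them when the cerebrum library of fetus 1 was set aside. That library held 4492 CPM of SPARC, 264 CPM of THBS2 and 331 CPM of FMOD. FMOD, the collagen-binding fibromodulin, was between 208 and 431 CPM (median 315) in muscle. TNMD, the tenomodulin of mature tenocytes, was between 99.2 and 259.7 CPM (median 173) and at most 45.3 CPM elsewhere. The 3 counts of TNMD in liver gave a ratio of 4303 (95% counting interval 1472 to 20866). KERA, the keratocan of tendon and cornea, was between 56.6 and 175 CPM (median 102). SCX, the transcription factor of tendon progenitors, was between 9.14 and 14.6 CPM (median 11.3) and had the narrowest range of the 5 as highest over lowest library, while MKX, a later tendon factor, was between 19.9 and 63.2 CPM (median 46.3).

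Transcripts of the genes on the Schwann cell list were counted in every muscle library, while most sensory neuron transcripts were concentrated in 2 of them. All 6 Schwann cell genes were higher in the contrast with a median of 3.04, and 3 of them were higher than in each tissue. For none of the 6 did every muscle library lie above every other library. PMP22, a peripheral myelin protein that fibroblasts also make, was between 60.9 and 97.96 CPM (median 75.3). CDH19, a cadherin of Schwann cell precursors, was between 0.398 and 4.01 CPM (median 1.26), and its lowest values rested on few counts. ERBB3, the neuregulin receptor of Schwann cells and of epithelia, was between 30.6 and 214 CPM (median 114) in muscle and 79.6 to 149.9 CPM in liver. NGFR, the low-affinity neurotrophin receptor, was between 61.5 and 208 CPM (median 87.9), and S100B, a calcium-binding protein of glia, was between 12.4 and 44.2 CPM (median 16.1) in muscle and 27.99 to 76.2 CPM in cerebrum.

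The sensory neuron list summed to 2102 CPM in fetus 73 and 515 CPM in fetus 1, and to between 38.8 and 81.7 CPM in the other 12 muscle libraries. Of its 7 members tested, 5 were higher in the contrast and 1 was lower, with a median log2 difference of 2.0, which was -1.91 against cerebrum alone. Without muscle libraries 1 and 73 the median in the contrast was 1.16 with 4 higher members and none higher than each tissue, against 1 (P2RX3) with them. SCN10A, a sodium channel of pain neurons, was 104 and 28.9 CPM in fetuses 73 and 1, at most 0.312 CPM in the other 12, and was removed as too low in most libraries. PRPH was higher by 2.87 ± 0.58, and by 1.98 without both libraries. NEFM, a neurofilament, was between 7.06 and 566 CPM (median 10.1) in muscle and was lower than in cerebrum (log2 difference -1.91 ± 0.46, adjusted p = 0.000528). NEFL, its light partner, was higher in the contrast (1.19 ± 0.54, adjusted p = 0.0474), and this call was lost without libraries 1 and 73 (0.32, adjusted p = 0.419) and in 11 of the 14 fits that left out a fetus (adjusted p up to 0.191, for fetus 73). P2RX3, a receptor for ATP on sensory endings, was between 0.623 and 40.7 CPM (median 1.59) and SCN9A, another sodium channel of sensory neurons, between 11.3 and 76.1 CPM (median 40.9). The range of SCN9A, unlike that of PRPH or SCN10A, was not set by fetuses 73 and 1 alone. TAC1, the precursor of substance P, was at 0.429 to 15.7 CPM in muscle and 5.66 to 121 CPM in cerebrum, and was the member not called in the contrast (adjusted p = 0.129).

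Of 14 genes of cerebral neurons and progenitors, 9 were lower in the contrast, 3 were higher and 2 were not called. PAX6, a factor of cortical progenitors, reached 0.245 CPM in muscle, against 24.98 to 74.8 CPM in cerebrum. STMN2, TUBB3 and ELAVL4, which all neurons use, were 897, 425 and 135 CPM in fetus 73, and their medians over the muscle libraries were 15.4, 6.37 and 0.126 CPM. MAP2, of the same list, did not follow this pattern. It was between 36.8 and 139 CPM in muscle, highest in fetus 25, with 122 CPM in fetus 73. In cerebrum MAP2 was between 633 and 4197 CPM. TBR1, a factor of cortical neurons, was at most 0.490 CPM in muscle. NEUROD6 and NEUROD2, also factors of cortical neurons, were both 1.63 CPM in fetus 73 and at most 0.245 and 0.346 CPM in the other 13 muscle libraries, against 22.7 to 354 and 9.37 to 73.5 CPM in cerebrum. Without libraries 1 and 73 the log2 difference of TUBB3 moved from -1.28 to -2.17 and that of ELAVL4 from -2.41 to -4.78, and 10 members were lower in place of 9. With all libraries the call of TUBB3 was lost in 10 of the 14 fits that left out a fetus (adjusted p up to 0.28, for fetus 55) and that of ELAVL4 in 5 (up to 0.379, for fetus 55), and without the fetus as a block both log2 differences were 0.20 (adjusted p = 0.783 and 0.829). Without the 4 liver libraries 6 members were lower, and the calls of ELAVL4 (adjusted p = 0.0607), NEUROD6 (0.0925) and GAD1, an enzyme of inhibitory neurons (0.0689), were among those lost. GAP43, a protein of growing axons, was not called (-0.70 ± 0.41, adjusted p = 0.121) and was lower without muscle libraries 1 and 73 (-1.37, adjusted p = 5.05e-05). Among the higher genes, DCX and BCL11B, members of this list that were near 0 in liver, were both lower than in cerebrum (log2 differences -2.34 ± 0.34 and -2.15 ± 0.30).

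Markers of other cell types that a dissected sample can hold were present at various levels. Of 5 epidermal genes tested 3 were higher than in each tissue, namely KRT5, KRT15 and KRT17, the keratins of basal skin cells, and the list summed to between 12.9 and 255 CPM, highest in fetus 70 and next in fetus 25 (129 CPM). KRT15 was between 2.31 and 125 CPM (median 10.4) in muscle and KRT5 was between 3.43 and 58.1 CPM (median 12.1) (log2 difference 4.56 ± 0.48, adjusted p = 3.92e-10). KRT19, a keratin of simple epithelia, was not called (0.17 ± 0.26, adjusted p = 0.588) and KRT8, its partner, was lower, with 116 to 267 CPM in liver. The sums were 1.48 to 101 CPM in cerebrum, highest in fetus 1 and at most 16.6 CPM in the other 13, and 133 to 327 CPM in liver. Of the 14 muscle sums, 11 thus lay within the range of cerebrum, and those of fetuses 1, 6 and 23 also did so without the cerebrum library of fetus 1. The part of skin transcripts in the other results was not tested. All 3 endothelial genes, TEK, EGFL7 and ESAM, were higher in the contrast and none was higher than each tissue by 2-fold. TEK, the angiopoietin receptor, was between 30.7 and 58.96 CPM (median 45.03) in muscle and 19.8 to 65.6 CPM in liver. Of 5 smooth muscle and pericyte genes, 4 were higher than in each tissue. ACTA2, the smooth muscle actin that early skeletal muscle shares, was between 76.99 and 473 CPM (median 178) and differed by 3.43 ± 0.27. CSPG4 and NOTCH3, which mark pericytes, were between 55.8 and 94.4 CPM (median 79.9) and between 112 and 178 CPM (median 150.4), while RGS5, another pericyte gene, was at most 5.21 CPM (-0.44 ± 0.34, adjusted p = 0.255).

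Blood and liver transcripts were low in muscle against liver. Of 5 macrophage genes, 4 were lower in the contrast and CSF1R, the growth factor receptor of macrophages, was higher at between 6.84 and 22.9 CPM (median 13.05) against 1.49 to 11.8 CPM in cerebrum and 16.2 to 26.9 CPM in liver. CD163, a scavenger receptor of macrophages, was the call lost without the 7 libraries, which left 3 lower members (-0.64, adjusted p = 0.0889). The macrophage list summed to 14.8 to 58.4 CPM. Fetal liver is a site of blood formation, and all 6 red cell genes were lower in the contrast. HBA, an alpha-globin, was between 22.2 and 66.7 CPM (median 37.8) in muscle and 4136 to 10623 CPM in liver, and was higher in muscle than in cerebrum (2.22 ± 0.43, adjusted p = 3.06e-05). Its reads can be shared with a near-identical copy, so that its level is uncertain. Of 12 hepatocyte genes, 11 were lower, and HNF4A, the factor of hepatocytes, had no count in any muscle or cerebrum library. The list summed to 6.27 to 156 CPM in muscle, with the highest sums in fetuses 70 and 54 (89.5 CPM), against 125940 CPM in the lowest liver library. SERPINA1, the antitrypsin of plasma, had the most CPM among them in muscle at between 0.418 and 62.6 CPM (median 4.54). The fat list had no member with a symbol.

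Among 6 cell cycle genes, 2 were higher, 3 were lower and 1 was not called, against 39.0% higher and 32.1% lower over all genes, which singles out nothing in so short a list. CDKN1A, the p21 inhibitor that MYOD1 induces when myoblasts leave the cycle, was between 22.5 and 239 CPM (median 90.4) in muscle and at most 18.6 CPM elsewhere (4.34 ± 0.23, adjusted p = 2.57e-17). CDKN1C, the p57 inhibitor of the same step, was between 129.8 and 369 CPM (median 225) and was higher than in cerebrum by 2.49 ± 0.19 but not called against liver (-0.16 ± 0.18, adjusted p = 0.405). TOP2A, MCM2 and PCNA, genes of DNA replication, were between 218 and 348 CPM (median 302), between 82.4 and 161 CPM (median 138) and between 109.7 and 165 CPM (median 131), with log2 differences of 0.22 ± 0.19, -0.39 ± 0.10 and -1.02 ± 0.16. TOP2A was the member not called (adjusted p = 0.307). MCM2 was higher than in cerebrum and lower than in liver (1.10 ± 0.11 and -1.88 ± 0.12). The direction of MCM2 turned without TMM scaling (0.17, adjusted p = 0.237).

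Of 6 genes of insulin-like growth factor signalling, 5 were higher and IGFBP1 was lower. IGF2, the main fetal growth factor of the family, was between 2126 and 6302 CPM (median 4119.9) in muscle, 1.56 to 535 CPM in cerebrum and 4788 to 18254 CPM in liver, with log2 differences of 8.57 ± 0.55 to cerebrum and -0.88 ± 0.38 to liver. IGFBP4 and IGFBP3, binding proteins of these factors, were between 241 and 530.4 CPM (median 419.7) and between 153 and 288 CPM (median 244). IGFBP1, the binding protein made by liver, was at most 0.566 CPM in muscle and 218 to 1154 CPM in liver. Of 9 BMP, TGF-beta and WNT signals, 8 were higher, 6 of them than in each tissue. TGFBI, a matrix protein induced by TGF-beta, was between 249.9 and 464 CPM (median 357) (3.37 ± 0.23). TGFB2 and TGFB3 were between 36.6 and 73.04 CPM (median 64.02) and between 64.99 and 126 CPM (median 104) and differed by 4.97 ± 0.18 and 4.56 ± 0.21. DKK3, a secreted relative of the WNT inhibitors, was between 90.2 and 165 CPM (median 132) but did not pass against cerebrum (-0.45 ± 0.22, adjusted p = 0.0755). DKK2, another member of that family, was between 29.8 and 78.3 CPM (median 61.1) and at most 2.64 CPM elsewhere. FST, which binds myostatin and activin, was between 33.2 and 93.4 CPM (median 49.6) in muscle and was not called (0.10 ± 0.14, adjusted p = 0.543), while it was higher without the 7 libraries (0.33, adjusted p = 0.0354).

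At the other end, 3 of the 10 genes most below both tissues had a symbol. TTR, the transthyretin carrier of thyroid hormone, was between 0.453 and 2.15 CPM (median 0.948) in muscle, 11.03 to 5632 CPM in cerebrum and 1186 to 4276 CPM in liver. The highest cerebrum value came from the library of fetus 1, and the log2 difference was -9.27 ± 0.79 with it and -9.01 without it. CAMSAP3, which anchors microtubules in epithelial cells, was between 0.453 and 17.5 CPM (median 1.37) in muscle and at least 21.2 CPM in every other library. FCHO1, a protein of clathrin-coated pits, was between 0.557 and 4.99 CPM (median 1.37) in muscle and at least 12.7 CPM elsewhere. The other 7 had no symbol. Among them, ENSBTAG00000003212 was abundant in all tissues, between 77.8 and 162 CPM (median 101) in muscle, 457 to 2202 CPM in cerebrum and 4294 to 10828 CPM in liver, with a log2 difference of -3.74 ± 0.20 to cerebrum.

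The muscle libraries also differed from each other in these functions. The summed level of the thick filament genes ranged from 1490.0 CPM in fetus 25 to 11894 CPM in fetus 6, both RES, and the myogenic regulators from 138 CPM in fetus 25 to 597 CPM in fetus 1, both RES. Cartilage went the other way in these libraries, from 130.5 CPM in fetus 1 to 436 CPM in fetus 25. The fibrous matrix spanned 6316 to 9309.7 CPM. Apart from fetus 73, the thick filament sums were higher in each library low in MSX1 than in any library high in it. Among the 9627 genes with a mean of at least 10 CPM in muscle, the median SD of log2 CPM over the 14 libraries was 0.20. It was 0.97 for MYOG, 0.80 for MYH3 and 0.53 for ACAN. Of the 30 genes with the largest SD, 19 peaked in fetus 73, 6 in fetus 25 and 3 in fetus 70. Over the 14 muscle libraries log2 CPM of MYOG correlated with that of MYOD1 (Pearson's r = 0.983, Spearman's rho = 0.982) and of MYH3 (r = 0.972, rho = 0.974), with an adjusted permutation p of 2e-05 for each of the 4 coefficients, the smallest that 100000 permutations over 6 pairs of markers gave. MYOG and MYOD1 kept r = 0.972 without the 2 fetuses farthest from the median, 25 and 70, and r was 0.947 within CON and 0.992 within RES. MYOG and ACAN had r = -0.55 (permutation p = 0.0406, adjusted p = 0.0532) and rho = -0.446 (adjusted p = 0.124). The coefficient r was 0.489 within CON and -0.789 within RES, so that the relation did not hold within CON.

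**Figure D5:**
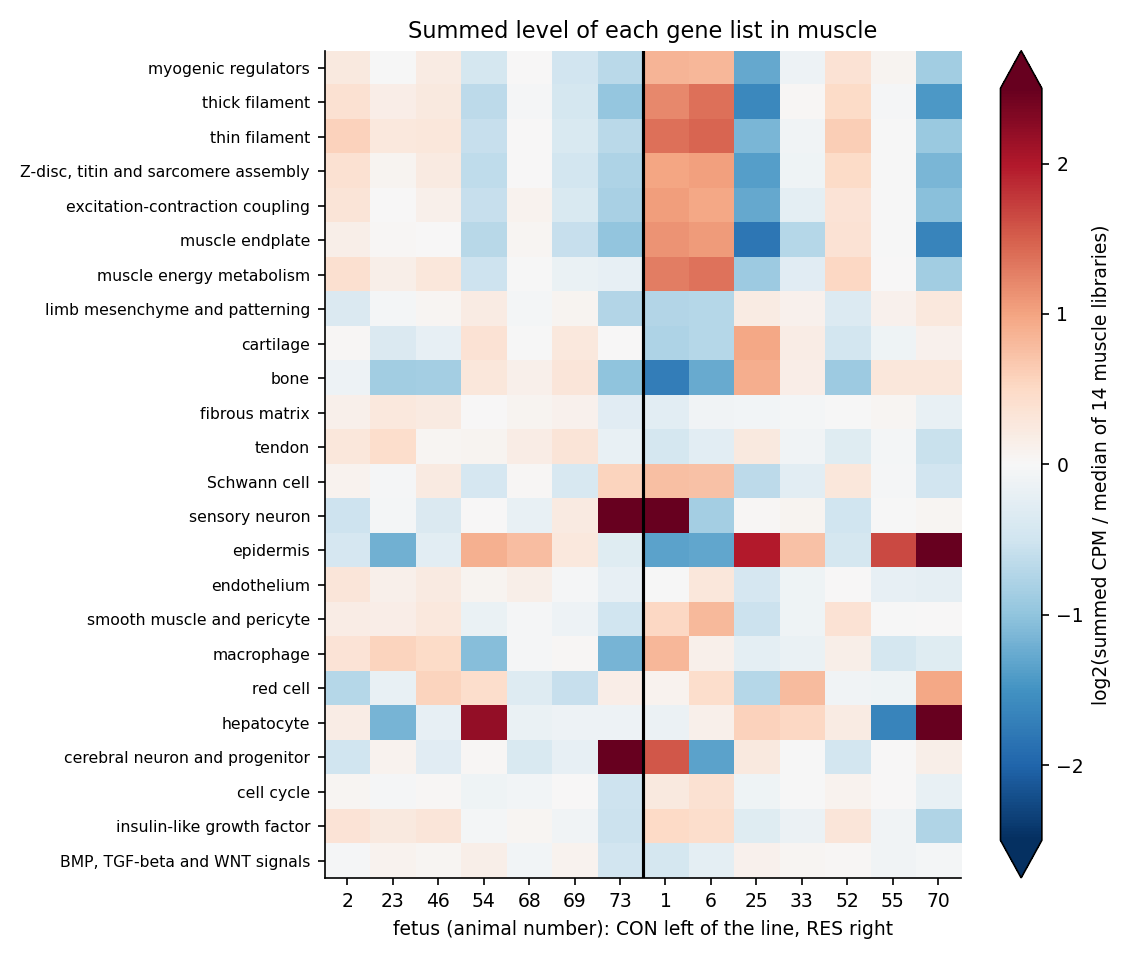
Summed CPM of each gene list in each of the 14 muscle libraries, as log2 of its ratio to the median of the 14, with CON fetuses left and RES fetuses right of the line. The muscle lists are high in fetuses 1 and 6 and low in fetuses 25 and 70, the sensory neuron list is high in fetuses 73 and 1, and the epidermis list in fetuses 70, 25 and 55.

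The study compared RES with CON fetuses, and this was tested in muscle with sex as a covariate. None of 14947 genes passed (0%; lowest adjusted p = 0.457 by edgeR's quasi-likelihood test with Benjamini-Hochberg adjustment), while 1481 had an unadjusted p below 0.05 and DESeq2's Wald test called 14 (0.0937%). Of 184 list members tested for diet, 9 (4.89%) had an unadjusted p below 0.05, against 9.91% of all genes. Among these 9 were 3 of the 5 tendon genes and 2 of the 11 fibrous matrix genes. The tendon genes summed to 734 ± 103 CPM in CON and 570 ± 110 CPM in RES muscle (mean ± SD), and the sums were not tested. MYOG was 103 ± 40.9 CPM in CON and 154 ± 109 CPM in RES muscle (mean ± SD, n = 7 each). MYH3 was 1978 ± 578 CPM and 2597 ± 1616 CPM, and ACAN was 33.02 ± 7.80 CPM and 27.4 ± 14.1 CPM. The CON and RES ranges overlapped for each gene, and the SD was larger in RES than in CON for each, a difference that was not tested. The muscle contrast itself was then compared between diets, and none of 15972 genes passed (0%; edgeR), with 327 at an unadjusted p below 0.05 and 0 called by DESeq2. The p-values of the diet test in muscle rest on the spread between fetuses, each from a separate dam. Those for the muscle contrast, fitted with the fetus as a block, rest on how differences between tissues varied among fetuses.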

How the data were processed

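RNA of 14 fetuses was sequenced from muscle, cerebrum and liver as strand-specific 50-bp paired-end libraries. The deposited table holds whole-number counts per Ensembl gene and library, not normalized. The submitters' processing notes name CASAVA, FastQC 0.11.8 and STAR 2.7.3a, and the study's methods name the ARS-UCD 1.2 assembly with Ensembl release 100. Which strand was counted is not given in the sources used here, and reads of near-identical genes may be shared or lost. Columns were matched to samples by title and groups came from the labels.

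Genes below 1 CPM in at least 80% of libraries were dropped, leaving 15972 of 22664. Counts were scaled by TMM and fitted with edgeR 4.0.16 (quasi-likelihood test, fetus as block, contrast of muscle minus the mean of cerebrum and liver), and p-values were adjusted by Benjamini-Hochberg over all genes tested. Muscle libraries of RES and CON were compared with sex as covariate, and DESeq2 1.42.0 was run as an alternative. Libraries from the same fetus are paired by animal. Their deviations from the tissue means had a median correlation of 0.077 between muscle and cerebrum and 0.098 between muscle and liver, above 0.1 in 6 and 7 of 14 fetuses.

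Symbols of 5131 genes were taken by identifier from supplementary gene tables of the study (names only), so genes without a symbol could not enter the lists. The genes named were the 4 markers, in every list the 3 members with most CPM in muscle and up to 2 members called against most of their list, further members of lists of 20 genes or fewer, and the 10 genes most above and most below both tissues. The MSX1, MSX2 and HOXD13 division was singled out after its values were seen. Some list members are not reported here by name. The members and lists were chosen with earlier results of these data known. Library totals of 4145093 to 12741299 counts set the precision, and counting intervals and floors cover counting error only.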

Additional observations from a re-analysis of the deposited data

Results flagged for a closer look

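In 28 series of values over the muscle libraries, the CON and RES fetuses (n = 7 each, 56 groups) were searched for a highest or lowest library whose gap to the next, as a share of the range, exceeded Dixon's 95% critical value, which chance exceeds in about 1 group in 20. This was met 11 times. In RES, fetus 25 had the highest ACAN (57.13 CPM, next 28.06 CPM) and the highest summed cartilage genes (436.2 CPM, next 253.8 CPM). The sensory neuron genes summed to 2102 CPM in fetus 73 of CON (next 81.67 CPM) and to 514.8 CPM in fetus 1 of RES (next 72.91 CPM), and the cerebral neuron and progenitor genes to 1831 CPM and 453.5 CPM in the same libraries. Fetus 1 also had the highest macrophage sum in RES, at 58.43 CPM. The hepatocyte genes were highest in fetus 54 of CON (89.47 CPM, next 22.33 CPM) and fetus 70 of RES (156.3 CPM, next 29.29 CPM). Fetus 73 had the lowest sums in CON for the cell cycle genes (646.3 CPM) and for the BMP, TGF-beta and WNT signals (594.1 CPM). The cell cycle sum holds the inhibitors CDKN1A and CDKN1C beside genes of DNA replication. The part of these libraries in other results was not tested beyond leaving them out.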

How the results depend on the processing

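Scaling and the filter moved the counts most. With library sizes alone, 9410 genes were higher and 2337 lower, with 344 lower than each tissue, and the log2 differences of CHRNE (0.084) and MCM2 (0.17) turned positive without passing. Requiring 1 CPM in at least 80% of libraries tests fewer genes, and left 4117 higher and 3987 lower. The share of higher genes among the calls was then 50.8%, against 54.9% in the main fit. This filter also left 767 genes higher and 316 lower than each tissue, and 53 higher and 18 lower list members. DESeq2's Wald test called 14 genes between diets. Without the replicate block 6018 genes were higher and 5235 lower, and TUBB3 (0.20) and ELAVL4 (0.20) turned positive without passing; the cause was not tested. Leaving out each fetus in turn gave 6103 to 6330 higher and 4989 to 5134 lower genes, 1598 to 1640 higher and 530 to 607 lower than each tissue, 147 to 148 higher and 34 to 38 lower list members, and 0 calls for diet and for its interaction. Without the 7 libraries that stood apart, a choice made after seeing the data, 6161 were higher and 5098 lower, and without the cerebrum library of fetus 23, chosen likewise, 6255 and 5160. Over single genes and the settings chosen at the start, 3840 values kept their direction and side of the threshold, 46 lost the call and 10 gained it. Depth limits genes near 1 CPM.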
